A study of Caenorhabditis elegans with 6 samples.

Results

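The small nucleolar RNA (snoRNA) genes are the 153 genes, of 21951 in the deposited count table, whose biotype there is snoRNA. Each snoRNA assembles with core proteins into a particle of the nucleolus and guides it by base pairing: box C/D snoRNAs direct ribose methylation and box H/ACA snoRNAs direct pseudouridylation, mostly of ribosomal RNA. Many animal snoRNAs are cut from the introns of protein-coding host genes, and the mature molecules as a rule carry no poly(A) tail. The libraries were made with oligo-dT enrichment, a step that does not select RNA without a poly(A) tail, so the values are reads counted over snoRNA genes and not levels of the mature snoRNAs.

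RNA came from whole wild-type Caenorhabditis elegans at the egg-bearing young adult stage. One group of 3 libraries was from animals exposed to ethyl carbamate at 100 mM for 24 h and the other group of 3 was from control animals. Ethyl carbamate, or urethane, is a small carbamate ester found in fermented food. The replicates are biological per the series design text, which gives neither the number of animals in each nor the control medium. The descriptions of all 6 libraries, and the titles of the controls, begin with EV, which the labels do not spell out.

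The ethyl carbamate libraries held 20176242 to 21258740 gene counts and the control libraries 19026133 to 22416213. Of the marker lists, neurons (4 of 5 genes higher, 443 to 461 summed CPM against 361 to 370 in controls), body wall muscle (4 of 4 higher) and pharynx (3 of 3 higher) had more reads in ethyl carbamate, and germline markers fewer (5 of 5 lower). Intestine markers went both ways (3 higher, 2 lower of 5), as did adult epidermis (1 higher, 2 lower of 3 tested). Of all tested genes, 40% were higher and 36.3% lower, so calls in lists this short are a description and not a test of a tissue. The 4 sperm markers had too few reads to test, at 0.747 to 1.78 summed CPM in ethyl carbamate libraries and 0.337 to 0.402 in controls. CPM is counts per 1000000 on library sizes scaled by the trimmed mean of M-values (TMM). In RNA of whole animals, fewer cells of a type and less RNA per cell cannot be told apart.

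By the deposited coordinates, 76 of the 153 snoRNA genes lay inside a protein-coding gene, 68 on its strand and 8 on the other strand, and 77 lay outside. These 76 fell in 71 host genes, 75 of them within an intron. The snoRNA genes were 61 to 344 bases long, with a median of 134 bases, and 91 were shorter than a read of 150 bases. All 153 coordinates equal those of the Ensembl 115 annotation of the WBcel235 genome. By that annotation, 25 of the 153 lay under an exon of a protein-coding gene on the same strand, a grouping chosen after the values were seen. No source used here gives the strand setting behind the counts, so reads from a gene on the other strand cannot be told apart from snoRNA reads.

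Reads gathered on few snoRNA genes, most of them under a coding exon. The 6 libraries together held 29860 reads on the 153 genes, and the 5 with the most reads held 61.5% of them. The 25 genes under a same-strand coding exon held 85.8% of the reads, with a median of 324 reads per gene. The 74 genes in a host intron with no such exon over them held 2.90%, with a median of 6.5 reads, and the other 54 held 11.3%, with a median of 6. Of those 54, F52G3.6 alone had 2257 reads. Of the 25 genes, 21 (84%) had enough reads to be tested, against 5 of the other 128 (3.91%).

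**Figure D1:**
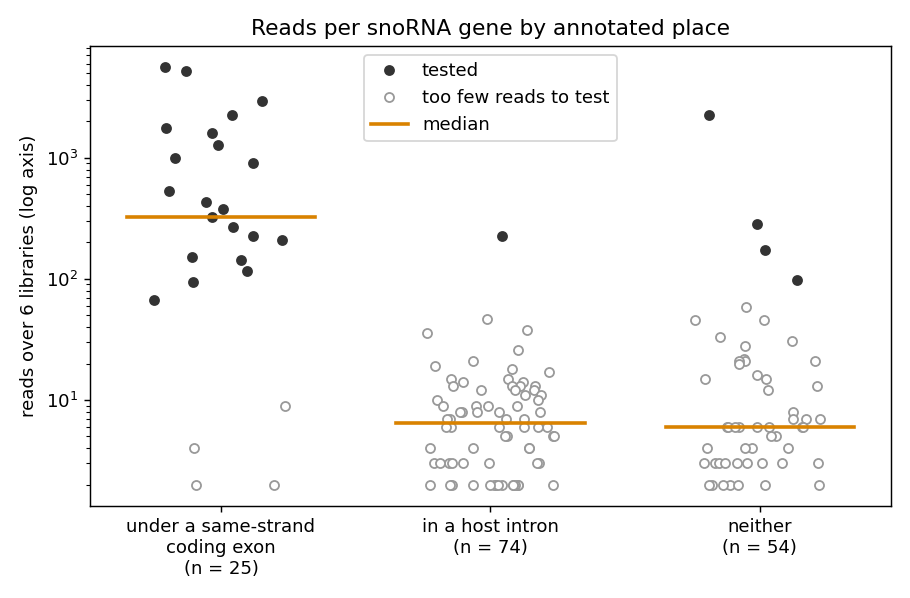
Reads on each snoRNA gene summed over the 6 libraries (log axis), by its place in the WBcel235 annotation; each point is 1 gene, filled where it was tested, and the bar is the median. The 25 genes under a same-strand coding exon have a median of 324 reads and the 74 in host introns a median of 6.5.

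The exons over the 21 tested genes were mostly 3′ untranslated regions: 18 snoRNA genes touched one and 15 lay wholly within one. A 5′ untranslated region lay over T08D2.11 (gene T08D2.8) and C02F5.15 (fbxl-1, an F-box gene). For 18 of the 21, the deposited span of the protein-coding gene ended 8 to 2335 bases, with a median of 551.5 bases, before the snoRNA gene began. In the deposited table these 18 snoRNA genes thus stood outside the gene whose exon the newer annotation places over them. In all, 18 protein-coding genes had such an exon, and lin-14, F58D5.5 and eif-4A3 had 2 snoRNA genes each.

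Of the 26 tested snoRNA genes, 9 were higher in ethyl carbamate, 5 were lower and 12 were not called (edgeR's quasi-likelihood test, Benjamini-Hochberg adjusted p below 0.05 over 14705 genes). That is 53.8% of them, against 76.3% of all tested genes, of which 40% were higher and 36.3% lower. The CPM of the groups did not overlap for 15 of the 26, or 57.7%, against 77.8% of all tested genes. The median log2 fold change was 0.13 for the 26 and 0.05 for all tested genes. With libraries scaled by size alone, 12 snoRNA genes were called higher and 2 lower. Of all 14705 genes, 7215 were then called higher and 3409 lower, and their median moved up to 0.24. The 26 genes are those with the most reads, so these counts do not stand for all 153. Of the 9 higher genes, C17D12.18, F26A10.28 and C25F6.30 reached the minimum count in all 3 ethyl carbamate libraries. They did so in only 1, 0 and 2 control libraries. The group where they were high thus helped bring them into the test, and their calls are not free of that selection. F55A3.8, with 3 ethyl carbamate and 2 control libraries over the minimum, was not called.

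**Figure D2:**
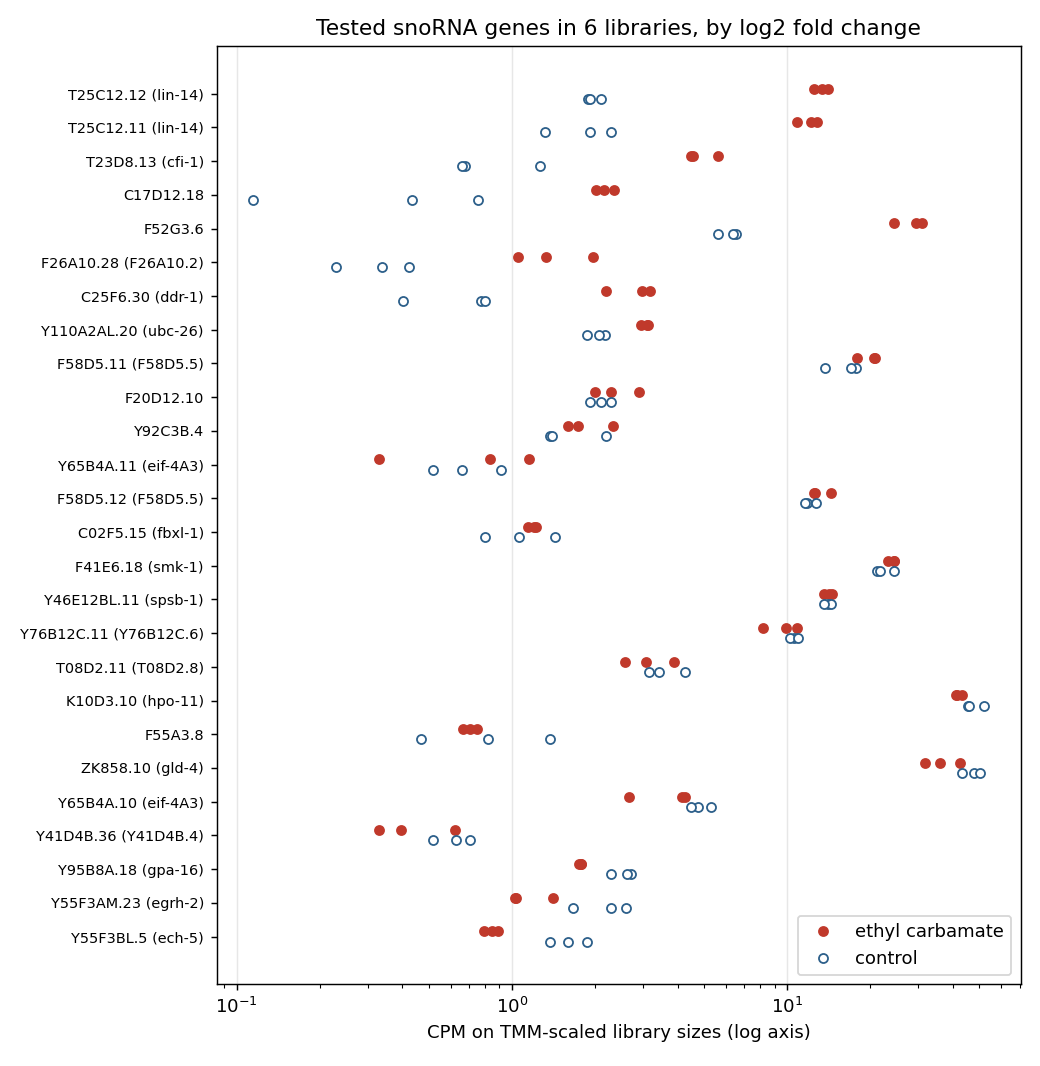
CPM of the 26 tested snoRNA genes in each ethyl carbamate library (filled) and each control library (open), on a log axis, from the highest log2 fold change at the top to the lowest; in brackets is the protein-coding gene with a same-strand exon over the snoRNA. The groups are apart in the 9 upper rows, of which the 7 topmost differ by 4-fold or more.

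The 7 snoRNA genes that rose 4-fold or more were T25C12.12, T25C12.11, T23D8.13, C17D12.18, F52G3.6, F26A10.28 and C25F6.30. They took 25.3% of all snoRNA reads in ethyl carbamate libraries and 5.76% in control libraries. The 7 were picked by their rise in these same libraries, so a larger share in ethyl carbamate follows from the choice. Of the 7, 5 lie on chromosome X, which holds 6 of the 26 tested. Among all 2241 tested X-linked genes 1343 were higher and 365 lower (median log2 fold change 0.51). Genes with few reads also rose as a whole: of 3488 tested genes at or below the median abundance of the 26, 1711 were higher and 376 lower (median log2 fold change 0.70). The part of these tilts, and of the higher neuron markers, in the 7 rises was not tested.

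The largest rises were in a pair of snoRNA genes under the 3′ untranslated region of lin-14, which encodes a nuclear protein that sets the timing of larval cell fates and is the classic target of the microRNA lin-4. T25C12.12 (WBcel235 chromosome X, 11484826 to 11484924, plus strand) had 13.4, 12.5 and 14.1 CPM in ethyl carbamate libraries, against 1.89, 1.93 and 2.11 CPM in controls. T25C12.11 (chromosome X, 11484493 to 11484600, plus strand) had 12.2, 10.9 and 12.8 CPM in ethyl carbamate libraries, against 1.32, 1.93 and 2.30 CPM in controls. Every ethyl carbamate library was far above every control library for both. The log2 fold changes were 2.74 (SE 0.14; edgeR adjusted p = 2.0e-13) and 2.67 (SE 0.16; edgeR adjusted p = 5.25e-12). Transcripts of lin-14 itself stood at 69.9, 60.2 and 64.2 CPM in ethyl carbamate libraries and at 8.95, 11.3 and 10.8 CPM in controls, a log2 fold change of 2.63 (SE 0.08). The deposited lin-14 span ended 559 bases before T25C12.12 and 226 bases before T25C12.11.

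T23D8.13 (chromosome I, 9994307 to 9994475, minus strand) lies under the 3′ untranslated region of cfi-1, an ARID-type transcription factor of neurons. It had 4.55, 5.63 and 4.49 CPM in ethyl carbamate libraries and 1.26, 0.674 and 0.656 CPM in controls, with no overlap. Its log2 fold change was 2.53 (SE 0.24; edgeR adjusted p = 7.24e-09), and that of cfi-1 was 2.67 (SE 0.14). C25F6.30 (chromosome X, 5466071 to 5466260, plus strand) begins 8 bases after the deposited end of ddr-1, a discoidin domain receptor with roles in axon guidance. It had 3.19, 2.20 and 2.98 CPM in ethyl carbamate libraries and 0.402, 0.771 and 0.797 CPM in controls, also with no overlap. Its log2 fold change was 2.05 (SE 0.28; edgeR adjusted p = 1.48e-06), and that of ddr-1 was 1.77 (SE 0.10). F26A10.28 (chromosome X, 7630545 to 7630635, minus strand), under the 3′ untranslated region of F26A10.2, had 1.97, 1.06 and 1.33 CPM in ethyl carbamate libraries and 0.229, 0.337 and 0.422 CPM in controls. It rose by a log2 fold change of 2.09 (SE 0.38; edgeR adjusted p = 4.67e-05), where F26A10.2 rose by 2.96 (SE 0.10).

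The other 2 of the 7 had no coding exon over them. F52G3.6 (chromosome X, 16943323 to 16943517, plus strand) lies, in the newer annotation, under an exon of 1 of the 3 transcripts of C30E1.9, a noncoding RNA gene. The deposited span of C30E1.9 ends 12491 bases before F52G3.6, so the counts of the pair come from places far apart. It had 24.4, 29.4 and 31.0 CPM in ethyl carbamate libraries and 5.62, 6.50 and 6.38 CPM in controls, a log2 fold change of 2.19 (SE 0.10; edgeR adjusted p = 7.64e-14). C30E1.9 rose less, by a log2 fold change of 0.76 (SE 0.05). The log2 ratio of F52G3.6 to C30E1.9 was −1.96 ± 0.13 in ethyl carbamate libraries and −3.38 ± 0.02 in controls (SD, n = 3 each), a difference of 1.42 with no overlap. The exact two-sided permutation p was 0.1, the smallest that 3 against 3 libraries can give.

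C17D12.18 (chromosome I, 11601862 to 11602018, plus strand) begins 257 bases after unc-75, which encodes a CELF-family splicing factor of neurons. It had 2.02, 2.15 and 2.36 CPM in ethyl carbamate libraries and 0.115, 0.434 and 0.750 CPM in controls. Its log2 fold change was 2.26 (SE 0.36; edgeR adjusted p = 9.14e-06), and 2.89 without control replicate 3. That of unc-75 was 3.33 (SE 0.11). The log2 ratio of C17D12.18 to unc-75 did not differ beyond its spread, at −3.71 ± 0.22 in ethyl carbamate libraries and −3.07 ± 1.29 in controls (SD, n = 3 each; exact permutation p = 0.5).

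The other 2 higher genes moved by less. Y110A2AL.20, under the 3′ untranslated region of the ubiquitin-conjugating enzyme gene ubc-26, had 3.09, 3.12 and 2.93 CPM in ethyl carbamate libraries and 2.18, 2.07 and 1.88 CPM in controls. Its log2 fold change was 0.58 (SE 0.20; edgeR adjusted p = 0.0111), beside −0.05 (SE 0.07) for ubc-26, which was not called. F58D5.11, under the 3′ untranslated region of F58D5.5, rose by a log2 fold change of 0.30 (SE 0.10; edgeR adjusted p = 0.00808). Its call was lost without control replicate 2 (0.18, edgeR adjusted p = 0.085) and on log2 FPKM. Its neighbour F58D5.12, under the same region, was not called, at 12.7, 14.5 and 12.5 CPM in ethyl carbamate libraries and 11.8, 12.7 and 11.6 CPM in controls.

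The 5 lower snoRNA genes fell by at most about 1 log2 unit. Y55F3BL.5, under an exon of the enoyl-CoA hydratase gene ech-5, had 0.890, 0.791 and 0.845 CPM in ethyl carbamate libraries and 1.38, 1.88 and 1.59 CPM in controls, a log2 fold change of −0.94 (SE 0.28; edgeR adjusted p = 0.00448). Y55F3AM.23, under an exon of egrh-2, a zinc finger gene of the EGR family, had 1.03, 1.41 and 1.02 CPM in ethyl carbamate libraries and 1.66, 2.60 and 2.30 CPM in controls, a log2 fold change of −0.93 (SE 0.26; edgeR adjusted p = 0.00281). Both calls held under every scaling tried, and ech-5 and egrh-2 had log2 fold changes of −0.63 and −0.47.

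The other 3 lower calls were lost with scaling by library size. ZK858.10, under the 3′ untranslated region of gld-4, which encodes a cytoplasmic poly(A) polymerase, had 31.8, 36.1 and 42.4 CPM in ethyl carbamate libraries and 47.7, 43.3 and 50.4 CPM in controls. Its log2 fold change was −0.36 (SE 0.08; edgeR adjusted p = 0.000408), beside −0.52 for gld-4, and with scaling by library size −0.17 (edgeR adjusted p = 0.0876). Y95B8A.18, under the 3′ untranslated region of the G protein alpha subunit gene gpa-16, was at −0.52 (SE 0.21; edgeR adjusted p = 0.0289), beside −0.61 for gpa-16. That call was also lost with DESeq2 (adjusted p = 0.0597) and without any 1 library other than control replicate 1 (edgeR adjusted p = 0.0579 to 0.0711). K10D3.10, the snoRNA gene with the most reads, was at −0.19 (SE 0.06; edgeR adjusted p = 0.00557), and with scaling by library size at −0.002 (edgeR adjusted p = 0.974).

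Among the 12 snoRNA genes that were not called, several were well measured. F41E6.18, under the 3′ untranslated region of smk-1, which encodes a regulatory subunit of protein phosphatase 4, averaged 24.0 ± 0.68 CPM in ethyl carbamate libraries and 22.5 ± 1.72 CPM in controls (SD, n = 3 each). Y46E12BL.11, under an exon of spsb-1, averaged 14.1 ± 0.50 CPM in ethyl carbamate libraries and 14.04 ± 0.43 CPM in controls. Y76B12C.11 averaged 9.63 ± 1.34 CPM in ethyl carbamate libraries and 10.6 ± 0.33 CPM in controls. Y65B4A.10, under the 3′ untranslated region of the exon junction helicase gene eif-4A3, missed the threshold at a log2 fold change of −0.40 (SE 0.18; edgeR adjusted p = 0.0545). It passed with median-ratio scaling (edgeR adjusted p = 0.0352), with no filter (0.0461), with the replicate block (0.0471), without ethyl carbamate replicate 1 (0.0308) or 2 (0.0479), and by limma on log2 FPKM at 3 pseudocounts (adjusted p = 0.0330 to 0.0354). Beside it, eif-4A3 was at −0.40 (SE 0.05). The other 8 (F20D12.10, Y92C3B.4, Y65B4A.11, F58D5.12, C02F5.15, T08D2.11, F55A3.8 and Y41D4B.36) had log2 fold changes of −0.46 to 0.19. F20D12.10 lies over an exon of F20D12.12 on the opposite strand, and F55A3.8 begins 574 bases after gpx-8, with no exon of another gene over it.

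Set against the gene whose exon lies over it, no tested snoRNA gene had a change in ratio that passed the test. An edgeR fit with the coding gene's counts as offset, chosen after the data were seen, called 0 of 21 ratios, and 1 had an unadjusted p below 0.05. Over all 78 such pairs of any biotype it called 6, or 7.69% (5.13% higher and 2.56% lower). The snoRNA and the coding gene had the same sign in 17 of 21 pairs, and the change in ratio ran from −0.85 (F26A10.28) to 0.62 (Y110A2AL.20), with a median of 0.05 (log2). For Y110A2AL.20 the 95% interval was 0.12 to 1.13 (edgeR adjusted p = 0.126). For T25C12.12 against lin-14 the change in ratio was 0.12 (95% interval −0.25 to 0.48), and for T25C12.11 it was 0.05 (−0.33 to 0.43).

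The intervals allow differences of some size. In 11 of the 21 pairs the whole interval lay within 0.5 log2 units of no change, and the intervals were 0.44 to 2.02 log2 units wide. For F26A10.28 the interval was −1.84 to 0.15, and limma on log2 ratios with a pseudocount of 0.5 CPM called it, at −1.63. With a pseudocount of 1 CPM limma called 2 pairs, and with 0.1 CPM it called 0. As a description, the log2 fold changes of snoRNA and coding gene had a Pearson r of 0.967 over the 21 pairs and of 0.780 over the 16 pairs with a snoRNA change below 4-fold. The pairs share the 6 libraries, and 3 coding genes occur in 2 pairs each.

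**Figure D3:**
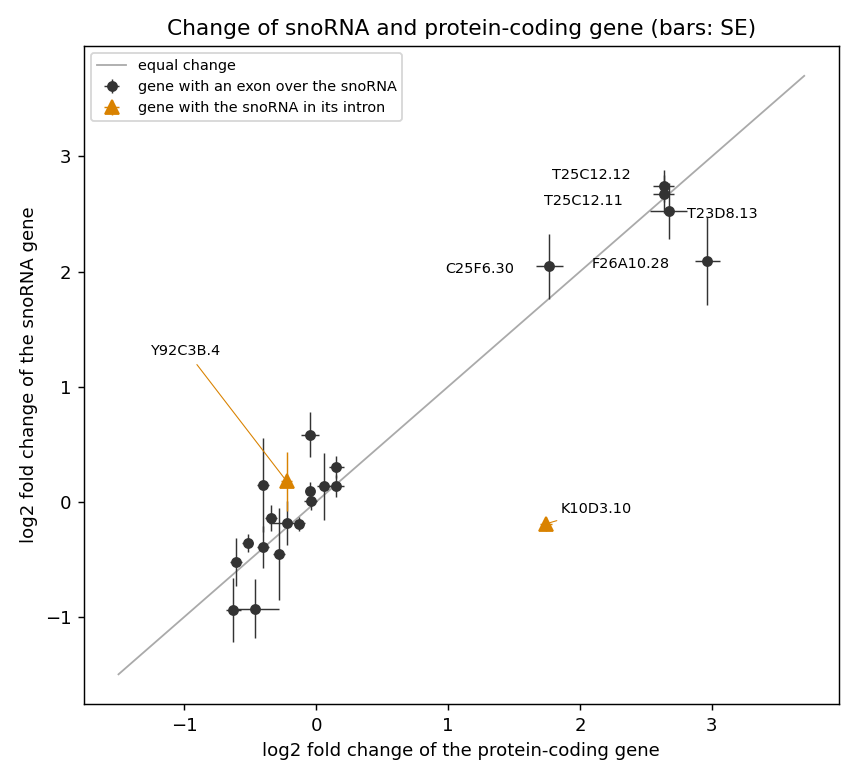
Log2 fold change (ethyl carbamate over control) of each tested snoRNA gene against that of the protein-coding gene with an exon over it (circles, 21 pairs) or with the snoRNA in its intron (triangles, 2 pairs); bars are standard errors and the line marks equal change. K10D3.10 is plotted against its intronic host, at −0.19 beside 1.74, and again among the circles against hpo-11, at −0.19 beside −0.13.

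Only 2 tested snoRNA genes lay inside a host by the deposited coordinates, and they differed from each other in this respect. K10D3.10 (chromosome I, 7139060 to 7139384, minus strand) lies in an intron of K10D3.4, on the same strand, and also under the annotated 3′ untranslated region of hpo-11, a gene named for hypersensitivity to pore-forming toxin. K10D3.10 had 41.0, 43.2 and 41.4 CPM in ethyl carbamate libraries and 45.5, 45.9 and 51.9 CPM in controls. K10D3.4 had 141, 139 and 134 CPM in ethyl carbamate libraries and 42.5, 43.2 and 38.3 CPM in controls, a log2 fold change of 1.74 (SE 0.05). The ratio of K10D3.10 to K10D3.4 thus fell by 1.92 log2 units (95% interval −2.16 to −1.67; limma, called at an adjusted p below 0.05; −1.94 by edgeR with offset). In the same limma fit 219 of all 316 nested pairs, or 69.3%, were called (40.5% higher and 28.8% lower), and the edgeR fit with offset called 65.2%. Against hpo-11, at −0.13 (SE 0.04), the ratio of K10D3.10 changed by −0.06 (95% interval −0.28 to 0.16) and was not called.

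Y92C3B.4 (chromosome III, 1069058 to 1069313, minus strand) lies in an intron of uaf-1, which encodes the large subunit of the splicing factor U2AF, with no other exon over it. It had 1.59, 2.33 and 1.73 CPM in ethyl carbamate libraries and 1.38, 1.40 and 2.20 CPM in controls, and the groups overlapped. Its ratio to uaf-1 changed by 0.38 log2 units (95% interval −0.11 to 0.86; limma adjusted p = 0.142). Without control replicate 3 the change was 0.58 and was called (limma adjusted p = 0.0348).

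Per length, the tested snoRNA genes under a coding exon stood in the median above the level of that gene, and those in introns far below their host. FPKM, the authors' fragments per kilobase scaled to library depth, of the 21 tested snoRNA genes was a median of 186% of the FPKM of the gene whose exon lies over them in ethyl carbamate libraries and 173% in controls. It ranged over the 21 pairs between 10.7% and 399% in ethyl carbamate libraries and between 7.47% and 371% in controls. For the 74 in host introns the median was 0.349% of the host in ethyl carbamate libraries and 0.153% in controls. These 74 pool snoRNA genes on the strand of the host with some on the other strand. Of these 74, 49 lay below 1% in ethyl carbamate libraries and 49 in controls. Of the 26 tested snoRNA genes 14 are shorter than a read, so reads that reach past their ends enter the FPKM of a short gene. The 21 were chosen by having enough reads to be tested. Over all 25 under an exon the medians were 121% in ethyl carbamate libraries and 122% in controls.

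**Figure D4:**
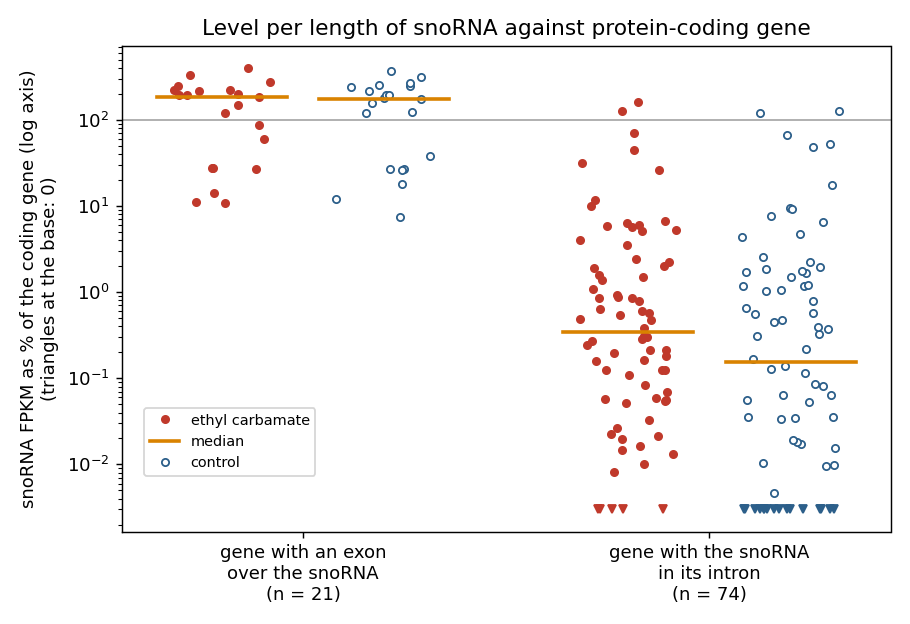
FPKM of a snoRNA gene as a percentage of the FPKM of the protein-coding gene (log axis; mean of 3 libraries) in ethyl carbamate (filled, left) and control (open, right), for the 21 tested snoRNA genes under an exon and the 74 in a host intron; bars are medians and triangles at the base are values of 0. The medians are 186% and 173% on the left and 0.349% and 0.153% on the right.

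The hosts themselves were abundant, while the snoRNA genes in their introns held few reads. The intronic snoRNA genes with no coding exon over them had 68 tested hosts, counting hosts on either strand. Of these hosts, 16 were higher, 40 were lower and 12 were not called, with a median log2 fold change of −0.19. Of all tested genes, 40% were higher, 36.3% lower and 76.3% called in either direction. On unscaled library sizes, 24 hosts were higher and 30 lower, with a median of −0.002. Of all 14705 tested genes, 7215 were then higher and 3409 lower, with a median of 0.24. The 11 hosts that encode ribosomal proteins, among them rpl-15 (−0.83), rpl-24 (−0.80) and rps-23 (−0.77), were all lower under each of the 3 scalings and with DESeq2. The 13 snoRNA genes in these 11 hosts held 55 reads in the ethyl carbamate libraries, beside 580422 on the hosts. In the controls they held 37 reads, beside 834994 on the hosts. At this depth no change of a snoRNA gene in a ribosomal protein gene could be tested.

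The 127 snoRNA genes with too few reads to test held 2 to 59 reads each over the 6 libraries, with a median of 6. No control read fell on 30 of them, and no ethyl carbamate read on 10. For each, reads were pooled within a group and their ratio was given a 95% exact (Clopper-Pearson) interval, which covers counting error only. That interval lay above 1 for 12 genes, below 1 for 7 and included 1 for 108. The same counts over other genes with few reads are not given here. Over the whole table, 19705 to 19796 genes had a read in ethyl carbamate libraries and 17939 to 18506 in controls. Whether the counts above differ from those of other genes with few reads was not tested. ZK20.9, with the most reads of the 127, had 8, 23 and 20 reads in ethyl carbamate libraries and 2, 4 and 2 in controls, a ratio of 5.70 (interval 2.68 to 13.9). C23G10.12 had 7, 6 and 14 reads in ethyl carbamate libraries and 0, 2 and 2 in controls, a ratio of 6.03 (2.10 to 23.7).

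F33E11.7 had 15, 7 and 12 reads in ethyl carbamate libraries and 5, 3 and 4 in controls, a ratio of 2.53 (1.28 to 5.37), and of 2.08 (0.960 to 4.71) without ethyl carbamate replicate 1. Y67A10A.14 had 8, 10 and 8 reads in ethyl carbamate libraries and 1, 6 and 0 in controls, a ratio of 3.32 (1.40 to 9.06). That ratio was 15.1 without control replicate 2, which held 6 of its 7 control reads, and 2.13 (0.901 to 5.81) without control replicate 3. The other 6 of the 10 with the most reads had intervals that include 1. They were F54G2.4 in F54G2.1, F55H12.9, Y43F8C.22 in Y43F8C.7, B0228.10 in the copine gene cpna-2, K10D2.10 and F25H2.14 in tct-1. Of these hosts, F54G2.1 and cpna-2 were higher (log2 fold change 0.99 each), tct-1 was lower (−0.58) and Y43F8C.7 was not called (−0.10). The ratio of F55H12.9 was 1.16, and 0.743 without ethyl carbamate replicate 3. That of K10D2.10 was 2.23, and its interval lay above 1 without control replicate 2 (3.88, 1.15 to 20.4) or ethyl carbamate replicate 3 (2.53, 1.01 to 6.89). That of F25H2.14 lay below 1 without control replicate 3 (0.344, 0.133 to 0.839).

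The authors' deposited table, which gives adjusted p-values for all 153 snoRNA genes, calls 9 of them higher and 4 lower at 0.05. The share of all genes called there is not given here, so the 13 calls are only set against the present fit. The present fit called 11 of these 13 with the same sign. The other 2 are ZK20.9 (log2 fold change 2.45, adjusted p = 0.00463 in the authors' deposited table) and C23G10.12 (2.57, adjusted p = 0.0367 in the authors' deposited table), which had too few reads for the test here. F58D5.11, Y95B8A.18 and Y110A2AL.20 were called here and stand at adjusted p-values of 0.0801, 0.0909 and 0.0942 in the authors' deposited table.

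Summed over all 153 genes, snoRNA reads took a larger share of the ethyl carbamate libraries. They made up 263, 279 and 280 reads per 1000000 gene counts in ethyl carbamate libraries, against 195, 195 and 212 in controls, with no overlap. The means were 274 ± 9.37 in ethyl carbamate and 201 ± 9.63 in controls (SD, n = 3 each; exact two-sided permutation p = 0.1, the smallest possible). On TMM-scaled library sizes the means were 256 ± 6.75 in ethyl carbamate and 214 ± 7.48 in controls, so the difference shrank to 42.0. The 76 genes inside a host did not differ beyond their spread, at 52.5 ± 1.72 in ethyl carbamate and 50.7 ± 4.82 in controls (SD, n = 3 each; exact permutation p = 0.5). K10D3.10, which also lies under the hpo-11 exon, held 2788 of their 3274 reads in ethyl carbamate and 2853 of their 3235 reads in controls. The other 75 had 7.79 ± 0.41 in ethyl carbamate and 5.96 ± 0.90 in controls, with no overlap on these unscaled library sizes (exact permutation p = 0.1). Sums of subsets are given on unscaled sizes only. The TMM factors were 1.06 to 1.08 in ethyl carbamate libraries and 0.92 to 0.95 in controls. Each excess of a subset in ethyl carbamate is therefore smaller on TMM-scaled sizes. For the 75 genes without K10D3.10 the groups then overlap, with ethyl carbamate replicate 3 below control replicate 3. The 25 genes under a same-strand coding exon had 224 ± 4.78 in ethyl carbamate and 183 ± 8.97 in controls, and the other 128 had 49.6 ± 4.64 in ethyl carbamate and 17.9 ± 1.63 in controls, a ratio of 2.78. F52G3.6 held 1888 of the 3100 reads of these 128 in ethyl carbamate and 369 of 1141 in controls. Without it they had 19.4 ± 0.79 in ethyl carbamate and 12.08 ± 1.09 in controls, a ratio of 1.61. The 127 untested genes had 11.9 ± 0.588 in ethyl carbamate and 7.51 ± 0.993 in controls.

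**Figure D5:**
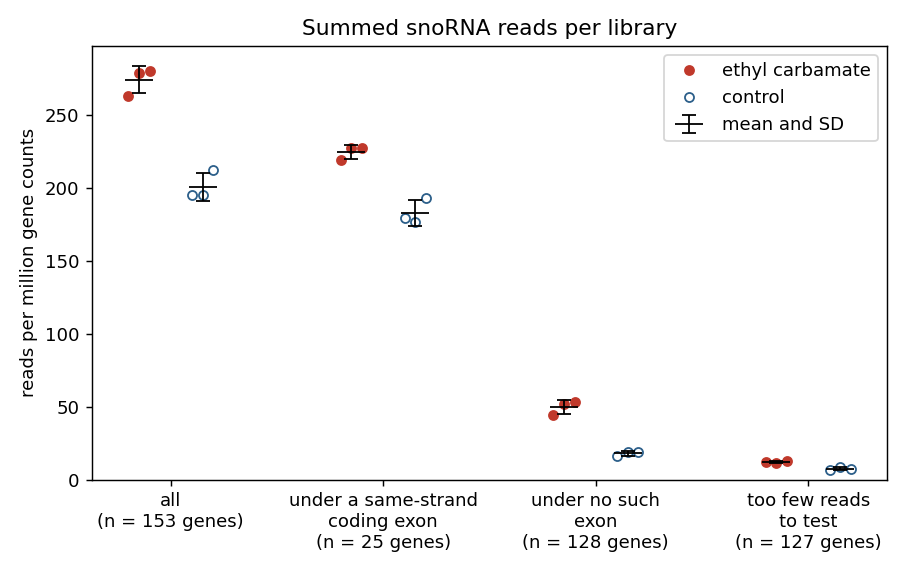
Reads on snoRNA genes per 1000000 gene counts in each ethyl carbamate library (filled) and control library (open), for all 153 genes and for 3 overlapping subsets; black bars are mean and SD of 3 libraries. On these unscaled library sizes the groups do not overlap in any of the 4 sets shown, with means of 274 and 201 for all genes.

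Of the 153 snoRNA genes 17% had enough reads to be tested, against 67% of all genes and 75.4% of protein-coding genes. The share was 36.3% for pseudogenes and 23.1% for other genes inside a protein-coding gene. It was 6.73% for the 2006 genes of biotype ncRNA, with 1 of 20 small nuclear RNA genes and 1 of 30 transfer RNA genes tested. Of the 135 tested ncRNA genes 54 were higher and 17 lower (median log2 fold change 0.20). Of 332 other tested genes that lie inside a protein-coding gene, 159 were higher and 71 lower, with a median of 0.43. Among all tested genes 40% were higher and 36.3% lower, with a median of 0.05. These are descriptions without a test between classes. A second deposited table lists FPKM for a further 190 snoRNA genes. Of these, 36 had a value above 0 in any library, in at most 3 libraries each, and the highest was 0.71 FPKM.

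Genes of the proteins in snoRNA particles fell by small amounts. All 10 tested genes of the snoRNP core list were lower (median log2 fold change −0.25), beside 36.3% of all tested genes. The AAA+ ATPase genes ruvb-2 (−0.61) and ruvb-1 (−0.56), which help assemble box C/D particles, fell most. They were followed by fib-1 (−0.43), the fibrillarin methyltransferase, dkc-1 (−0.34), the pseudouridine synthase, snu-13 (−0.31) and nol-56 (−0.20). With scaling by library size, 5 of the 10 were lower and 2 higher, and nol-56 was not called (−0.005). Under that scaling 3409 of all 14705 tested genes were lower and 7215 higher. Of 28 tested genes on a list of RNA surveillance and decay, 23 were lower and none was higher, with a median of −0.32. Among all tested genes the shares were 36.3% lower and 40% higher. Lower genes of the list were the poly(A)-specific ribonuclease gene parn-1 (−0.74) and the terminal uridylyltransferase genes pup-3 (−0.69) and cid-1 (−0.57). The Integrator subunit genes ints-4 (−0.65) and ints-11 (−0.45) were also lower. The list was written for nuclear steps but also holds gld-4, named above for a cytoplasmic enzyme, so its counts are not of nuclear genes alone. With scaling by library size 15 genes of the list were lower and 3 higher, beside the counts over all genes given above for that scaling.

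Of 35 tested genes of nucleolar ribosome biogenesis 14 were higher and 11 lower, with a median of 0.02, so that 71.4% were called, near the 76.3% of all tested genes. This list holds dim-1 (1.23), which encodes a body wall muscle protein, and without it 13 of 34 were higher and 11 lower. The RNA polymerase I subunit gene rpoa-1 (0.43), the GTPase gene nog-1 (0.41), the methyltransferase gene nsun-5 (0.40) and ncl-1 (0.39), whose loss enlarges nucleoli, were higher, and grwd-1 (−0.38) was lower. With scaling by library size, 22 of the 35 were higher and 2 lower, beside 7215 higher and 3409 lower of all 14705 tested genes. The germline markers were lower in the same libraries (2651 to 2727 summed CPM in ethyl carbamate and 4230 to 4502 in controls). Their part in the falls of the snoRNP and surveillance genes was not tested.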

How the data were processed

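Paired reads of 150 bases were obtained from 6 oligo-dT libraries, per the labels' protocols and the series design text. Alignment and counting tools named in the submitters' processing notes are HISAT2 2.0.5 and featureCounts 1.5.0-p3; the notes also list StringTie 1.3.3 and, for expression, DESeq2 1.20.0, where the design text has DEGSeq. Build, strand setting and handling of reads on overlapping genes are not given in the sources used here. Per the file headers, the authors deposited read counts per gene with no normalization, and beside them normalized counts (a signal scaled per library, not used for tests) and FPKM. The authors' own log2 fold changes and p-values stand in the same deposited table.

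All listed genes were fitted with edgeR 4.0.16 in R 4.3.3 (TMM scaling, filterByExpr with a minimum count of 10, quasi-likelihood F test, no covariate, two-sided, Benjamini-Hochberg adjustment over 14705 genes, threshold 0.05), and snoRNA rows were then read out. The ratio to the host was tested with limma 3.58.1 on log2 ratios of CPM plus 0.5. The ratio to the gene whose WBcel235 (Ensembl release 115) exon lies over the snoRNA was tested with edgeR, with that gene's counts as offset, a test chosen after seeing the data. In a simulation of this comparison with 14705 genes, edgeR recovered 38 of 50 genes at 1.5-fold and 48 of 50 at 4-fold, with 11 false calls. Over 316 simulated nested pairs, limma with a pseudocount of 0.5 CPM made 16 false calls of 276 unchanged pairs and the offset fit 3. Intervals of pooled reads use a confidence level of 95% and cover counting error only. Sums per library were compared with an exact permutation test.

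The members, lists and tests were chosen with earlier results of these data known. Named are all tested snoRNA genes, the 10 untested ones with the most reads, their hosts, and up to 6 called genes per list with the largest change. Replicate numbers were checked for pairing, and sensitivity to scaling, filters, DESeq2 1.42.0, FPKM with limma, the replicate block, the threshold and single libraries was computed. Sequences of the snoRNA genes were not analysed here. Figures were drawn with matplotlib 3.10.9.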

Additional observations from a re-analysis of the deposited data

How the results depend on the processing

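Over the scalings, filters, tools and thresholds tried, the number of snoRNA genes called higher ran from 8 (threshold 0.01) to 13 (no filter), against 9 in the report, and with each library left out in turn from 9 to 11. The number called lower was 2 with scaling by library size, against 5 in the report, and 4 to 7 under the other settings (4 to 5 with each library left out). The 7 rises of 4-fold or more passed under every setting run. For C17D12.18, F26A10.28 and C25F6.30, however, entry into the test itself leaned on the ethyl carbamate libraries. The same replicate numbers occur in both groups, but same-numbered libraries did not deviate together (Pearson r over genes 0.009, 0.003 and 0.002), so the numbers do not pair them. With the replicate block 9 snoRNA genes were higher and 6 lower, and Y65B4A.10 was called (−0.41). The number of host ratios called higher was 0 to 1 with each library left out. The number of exon gene ratios called lower was 1 with limma at 0.5 CPM and 2 at 1 CPM. The difference in summed snoRNA share, 73.1 in CPM of gene counts, was 42.0 on TMM-scaled sizes and 36.3 on median-ratio sizes. It was 70.1 to 78.7 with each library left out. On unscaled sizes it was 1.79 for the 76 snoRNA genes inside a host (a ratio of 1.04). Without K10D3.10 that difference was 1.83 and the ratio 1.31. The cause of these shifts was not tested.

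Scaling by library size turned the sign of some called genes outside the snoRNA genes themselves: 6 of 56 called hosts (1 then called the other way), 4 of 10 snoRNP core genes (2 then called the other way), 4 of 23 called surveillance genes, 3 of 25 called ribosome biogenesis genes, and hpo-11 of the 13 called exon genes. None of the 14 called snoRNA genes turned. These called genes stood at 0.11 or less after turning. Among the snoRNA and exon genes named in the report, with scaling by library size, hpo-11 (H37N21.1) turned to 0.060, Y76B12C.11 to 0.050, T08D2.11 to 0.0031, ubc-26 (Y110A2AM.3) to 0.14, smk-1 (F41E6.4) to 0.14 and spsb-1 (Y46E12BL.4) to 0.15. On log2 FPKM with pseudocounts of 0.5, 0.1 and 1, Y65B4A.11 turned to −0.027, −0.039 and −0.015, and Y46E12BL.11 to −0.043, −0.044 and −0.043. Y46E12BL.11 also turned to −0.025 with median-ratio scaling and to −0.025 with DESeq2.

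Ratios to the exon gene under limma turned as follows, at pseudocounts of 0.5 and 1 CPM: T25C12.12 −0.11 and −0.27, T25C12.11 −0.16 and −0.34, C25F6.30 −0.20 and −0.46, Y65B4A.10 0.029 and 0.065, Y41D4B.36 0.041 and 0.12. For Y55F3BL.5 the ratio turned to 0.11 at 1 CPM.

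With each library left out in turn, the log2 fold changes that crossed 0 ran over these ranges: Y92C3B.4 −0.0051 to 0.43, Y65B4A.11 −0.26 to 0.50, C02F5.15 −0.068 to 0.35, Y46E12BL.11 −0.024 to 0.038, F55A3.8 −0.62 to 0.13, ubc-26 (Y110A2AM.3) −0.13 to 0.021. The log2 ratios to the exon gene that crossed 0 ran over these: T25C12.11 −0.042 to 0.21, T23D8.13 −0.55 to 0.39, K10D3.10 −0.12 to 0.029, F58D5.11 −0.0057 to 0.22, Y65B4A.10 −0.084 to 0.14, T08D2.11 −0.12 to 0.12, Y41D4B.36 −0.50 to 0.0028, F58D5.12 −0.092 to 0.073, C02F5.15 −0.15 to 0.31.

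Depth limits what can be said of most members: 127 of 153 had too few reads to test. In a simulation over all 14705 tested genes, edgeR recovered 76% of 1.5-fold changes. The snoRNA genes had fewer reads than most (median log2 CPM of 1.51, against 4.06 for all tested genes), and recovery at their counts alone was not measured.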
